A study of Mus musculus with 2 samples.

Results

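In 4T1 cells, a murine breast cancer line, RNA-sequencing of 1 AS-treated and 1 vehicle-treated culture covered 8 genes at the centre of the PI3K-AKT pathway. They are the kinase genes Akt1 and Akt2, the PI3K subunit genes Pik3ca, Pik3cb and Pik3r1, the transcription factor genes Foxo1 and Foxo3, and the adaptor gene Irs2. They were chosen by name, with earlier results of these data known, and all 8 of 8 were among the 14197 genes of the deposited table. AS (astragalin) is a plant flavonoid and was given at 20 μM for 24 h. Both groups were wild-type 4T1 cells by their labels. They differed in treatment, astragalin or vehicle, and the vehicle is not named for this experiment in the sources used here. A level is given in RPKM, the reads of a gene per kilobase of its summed annotated exons, scaled to the reads of the library. Levels are compared between genes on that length, and the length of the transcripts present in these cells was not measured. With 1 library per group there was no replicate check and no test. Intervals given beside a value are 95% intervals that cover counting error only, and reads without molecular identifiers are not independent molecules.

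The PI3K enzymes of class I pair a catalytic with a regulatory subunit and make a lipid signal at the plasma membrane when a receptor such as the insulin receptor is active. IRS adaptors join the receptor to PI3K. The lipid recruits AKT, which is switched on by phosphorylation and in turn phosphorylates FOXO factors, which then leave the nucleus. When AKT is less active, FOXO factors stay in the nucleus and bind target genes, among them that of Irs2. In breast cancer the pathway is known for its role in growth and survival, and Pik3ca is often mutated there. The study measured AKT phosphorylation in AS-treated cells by Western blotting. The table used here holds RNA levels and carries no information on phosphorylation.

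The library sizes that the RPKM values imply were 44909683 reads for AS and 50820728 reads for the vehicle, and whole reads were recovered for 12738 genes, all 8 members among them. Each member had between 339 and 6753 reads in a library. All 10 epithelial marker genes examined had a row, with Epcam at 335 RPKM with AS and 357 RPKM with the vehicle. Their log2 fold changes of AS over vehicle ran from -0.96 for Krt14 to 0.47 for Esrp1, with a median of -0.22 beside 0.07 over all genes. The keratin genes Krt14 and Krt19 (-0.73) were lower by more than 1.5-fold. The keratin genes Krt8 (-0.54), Krt7 (-0.52) and Krt18 (-0.35) were lower by less, as were Epcam (-0.09) and Cldn7 (-0.06). Cdh1 (0.17), Cldn4 (0.42) and Esrp1 were higher. Of 12 markers of other cells, 5 had a row. Among these, Ptprc, the pan-leukocyte marker, was at 0.116 and 0.114 RPKM, while the macrophage-associated gene Cd68 was at 24.0 and 28.1 RPKM, and the 5 log2 fold changes ran from -0.23 for Cd68 to 0.30 for Col1a1. The part of other cells in any difference was not tested.

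A pair of promoter stretches is shown for letters known as FOXO-type motifs, since Irs2 is both an adaptor of the pathway and a FOXO target and Akt1 was the most abundant member. Both were taken from the RefSeq table for GRCm38.p6, which had entries for all 8 members, and both lie upstream of the RefSeq start on the minus strand. For Irs2 the stretch is chr8:11008930-11009029, ending next to the RefSeq start, which lies upstream of the GENCODE start of the gene, and capitals mark an E-box (CACGTG) and the insulin response element (TGTTTTG). For Akt1 it is chr12:112674985-112675084, from 101 to 200 bases before the start, and capitals mark the FOXO consensus (TGTTTAC).
Irs2: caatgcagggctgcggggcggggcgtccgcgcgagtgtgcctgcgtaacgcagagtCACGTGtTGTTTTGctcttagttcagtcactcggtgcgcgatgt
Akt1: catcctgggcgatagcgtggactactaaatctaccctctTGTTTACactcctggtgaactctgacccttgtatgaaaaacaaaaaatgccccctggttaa
Each motif was searched on both strands in windows of 300 bases, 250 before and 50 after a start, and the 3 motifs do not overlap in these stretches. The FOXO consensus was present for 1 of the 8 members (Akt1) and for 4.05% of all 27025 genes with a window. The insulin response element was present for 1 member (Irs2) and 7.20% of all genes, and the E-box for 1 member (Irs2) and 8.09% of all genes. A match of letters is a description and does not show binding.

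To see whether AS changed the RNA of the pathway, the log2 ratio of AS to vehicle was taken after 0.1 RPKM was added to both values. A gene was called where this log2 fold change passed 1 in either direction. This is the fold limit of the study, whose limit on the FDR was not applied here. Of the 8 members, 0 passed it, and 0 passed a change of 1.5-fold (0.58 on the log2 scale), the lower limit named in the study's methods. Over all genes, 0.972% passed 1, and 5.57% passed 0.58, with 3.56% higher and 2.01% lower. The counting interval of each of the 8 members lay within 0.58 of zero on both sides, so depth would have allowed a difference of that size between these libraries to be seen. The median log2 fold change of the members was 0.05, beside 0.07 over all genes, and it was -0.01 after centring on that median or TMM scaling.

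Pik3r1, which encodes regulatory subunit alpha of class I PI3K, showed the largest difference among the 8. It lies on chromosome 13 of GRCm38 from 101680563 to 101768217, minus strand. Its level was 4.78 RPKM with AS (2162 reads) and 3.80 RPKM with the vehicle (1946 reads). The AS level was 1.26-fold the vehicle level, a log2 fold change of 0.32 with an interval from 0.24 to 0.42. Of all genes, 3196 had a larger change in either direction, so the value lies well inside the range of the table. RefSeq gives Pik3r1 more than 1 start, and transcripts from different starts cannot be told apart in a gene-level value.

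Both catalytic subunits were nearly level between the libraries. Pik3ca, the gene of catalytic subunit alpha on chromosome 3 from 32397671 to 32468486 (plus strand), was at 5.34 RPKM with AS and 5.19 RPKM with the vehicle. Its log2 fold change of 0.04 had an interval from -0.04 to 0.13. Pik3cb, the gene of catalytic subunit beta on chromosome 9 from 99036654 to 99140621 (minus strand), was at 3.35 and 3.29 RPKM. Its log2 fold change was 0.02, with an interval from -0.10 to 0.14. For both genes the interval holds zero, and no difference was detectable at this depth.

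The kinase genes differed little. Akt1, on chromosome 12 from 112653821 to 112674884 (minus strand), was the most abundant member with 30.5 RPKM with AS and 32.4 RPKM with the vehicle. With 5618 and 6753 reads its interval was the narrowest, from -0.14 to -0.04 around a log2 fold change of -0.09. Akt2, the kinase gene tied most closely to glucose uptake, lies on chromosome 7 from 27591552 to 27640826 (plus strand). It was at 6.07 RPKM with AS and 5.79 RPKM with the vehicle, which gave a log2 fold change of 0.07 with an interval from -0.02 to 0.16. The Akt1 level was thus slightly lower and that of Akt2 not detectably different. The Akt1 interval leaves out zero by counting error alone, and the spread between cultures is not known.

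Of the FOXO genes, Foxo3 was the member with the lowest fold change. It lies on chromosome 10 from 42181841 to 42276755 (minus strand) and had 3.96 RPKM with AS (1347 reads) and 4.51 RPKM with the vehicle (1736 reads). The log2 fold change was -0.18 with an interval from -0.29 to -0.08, and 52.3% of all genes had a smaller change. Foxo1, on chromosome 3 from 52268336 to 52353221 (plus strand), was the least abundant member at 0.871 and 0.820 RPKM, from 339 and 361 reads. Its log2 fold change of 0.08 had the widest interval of the 8, from -0.13 to 0.31. The annotated antisense gene Gm20402 shares 674 exonic bases with Foxo1, 7.78% of its exons. The library kit keeps the strand, but the strand setting of the counting is not given in the sources used here, so part of the Foxo1 reads is uncertain.

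Irs2, the adaptor between insulin and IGF receptors and PI3K, had 898 reads in each library. Its level was 3.16 RPKM with AS and 2.79 RPKM with the vehicle, since the AS library was the smaller one. The gene lies on chromosome 8 from 10984681 to 11008458 (minus strand). Its log2 fold change was 0.17 with an interval from 0.04 to 0.31, and 67.2% of all genes had a lower fold change. An antisense transcript, 9530052E02Rik, shares 2.56% of its exonic bases.

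**Figure D1:**
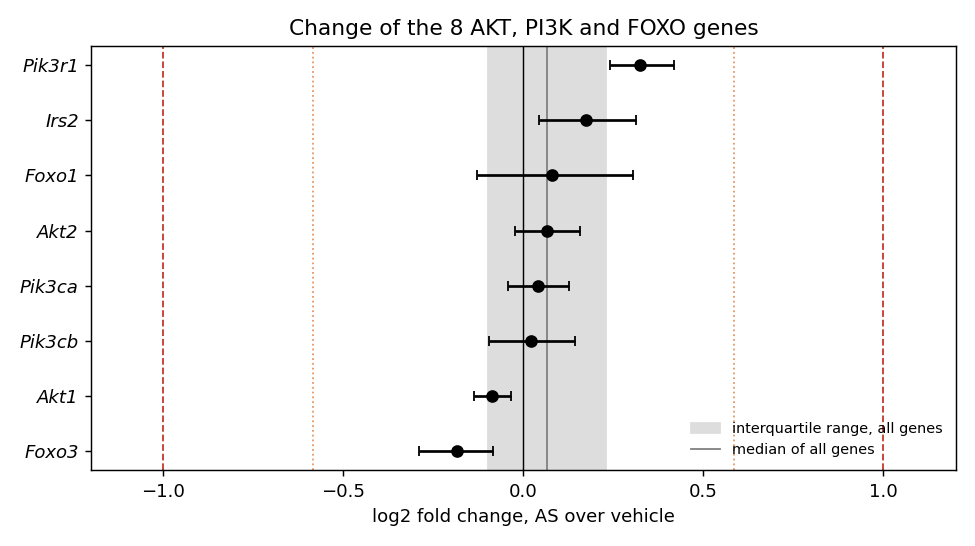
The log2 fold change of AS over vehicle (horizontal axis) for the 8 members, 1 library per group, where a dot is the value with 0.1 RPKM added and a bar the 95% Clopper-Pearson interval of the reads. Grey marks the interquartile range of all 14197 genes and their median of 0.07, dotted and dashed lines the thresholds of 0.58 and 1, and each bar stays inside the dotted lines, with Pik3r1 (0.32) highest and Foxo3 (-0.18) lowest.

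By size, 6 members had a positive and 2 a negative log2 fold change, and 3 lay above the median of all genes. The signs of Akt2, Pik3ca and Pik3cb turned when the fold changes were centred on the median of all genes or scaled by TMM, which lowers every value by 0.07. Those of Pik3r1, Irs2, Foxo1, Akt1 and Foxo3 kept their sign under both. Foxo1 was then at 0.01 with either, and Irs2 at 0.11 after centring and 0.10 after TMM scaling. The intervals given do not include this shift of 0.07. It is larger than the lower end of the Irs2 interval (0.04), so whether that interval leaves out zero depends on the scaling.

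The order of the levels was close to the same in the libraries. With the vehicle it ran Akt1, Akt2, Pik3ca, Foxo3, Pik3r1, Pik3cb, Irs2 and Foxo1. With AS, Pik3r1 stood above Foxo3 and the rest of the order was unchanged. The counting intervals of neighbours did not overlap, apart from Pik3cb and Irs2 with AS. Akt1 stood apart, with 5.60 times the RPKM of Akt2 with the vehicle and 5.03 times with AS.

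Ratios between members within a library do not depend on the scaling between libraries. The ratio of Pik3r1 to Pik3ca, a regulatory to a catalytic subunit, was 0.894 with AS and 0.732 with the vehicle. On the log2 scale this ratio was 0.29 higher with AS, with an exact conditional interval from 0.17 to 0.41. That of Foxo3 to Foxo1 was 4.55 (AS) and 5.50 (vehicle), and the log2 difference was -0.28 with an interval from -0.52 to -0.03. The ratio of Akt1 to Akt2 differed by -0.15 on the log2 scale, with an interval from -0.26 to -0.05. The ratio of the catalytic subunits, Pik3ca to Pik3cb, was 1.60 and 1.58, a log2 difference of 0.02 with an interval from -0.13 to 0.17. Pik3r1 was thus higher relative to Pik3ca by more than counting error, and the difference in the ratio of the catalytic subunits lay within it. Pik3r1 held 12.0% (AS) and 11.4% (vehicle) of the summed RPKM of Pik3r1, Pik3r2 and Pik3r3. Its ratio to Pik3ca is therefore not that of all regulatory to all catalytic subunit RNA.

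The relatives of these genes set the members in context. A list of 16 further genes of the same families held 11 in the table. Of these, 0 passed a log2 fold change of 1 or 0.58 in either direction, beside 0.972% and 5.57% of all genes. The median of the 11 was 0.12. Pik3cg, Pik3r6, Pik3c2g, Foxo6 and Irs4 were not analysed here.

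Among FOXO genes, Foxo4 was far more abundant than the members, at 25.4 RPKM with AS and 23.4 RPKM with the vehicle. It held 84.0% and 81.5% of the summed RPKM of Foxo1, Foxo3 and Foxo4. Its log2 fold change was 0.12, with an interval from 0.06 to 0.18. The lower end of that interval is smaller than the shift of 0.07 from centring or TMM scaling. The ratio of Foxo4 to Foxo3 was 6.42 (AS) and 5.19 (vehicle), and the log2 difference was 0.31 with an interval from 0.18 to 0.43. Thus the FOXO RNA of these cells was mostly that of Foxo4 in both libraries, and none of the 3 genes neared a threshold.

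The regulatory subunits were likewise mostly Pik3r2, the gene of regulatory subunit beta, at 33.4 RPKM with AS and 28.2 RPKM with the vehicle. It held 83.8% and 84.2% of the summed RPKM of Pik3r1, Pik3r2 and Pik3r3. The log2 fold change of Pik3r2 was 0.24, with an interval from 0.19 to 0.30, and its ratio to Pik3r1 differed by -0.09 on the log2 scale, with an interval from -0.19 to 0.02. Pik3r3 was at 1.66 and 1.47 RPKM, and another annotated gene on the same strand, Gm49337, shares 24.3% of its exonic bases, so its value is uncertain. Pik3cd, the catalytic subunit gene known best from leukocytes, was at 0.733 and 0.786 RPKM. Pik3r5, a regulatory subunit gene also known from leukocytes, was at 0.830 and 0.979 RPKM. Its log2 fold change of -0.21 had an interval from -0.50 to 0.03, which holds zero. Pik3ip1, an inhibitor of PI3K, was at 4.48 and 3.61 RPKM, a log2 fold change of 0.30.

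Irs1, the other IRS adaptor gene measured, was at 1.57 RPKM with AS and 1.24 RPKM with the vehicle, which gave a log2 fold change of 0.32 with an interval from 0.18 to 0.51. Irs2 held 66.8% of the summed RPKM of both with AS and 69.3% with the vehicle. The ratio of Irs2 to Irs1 differed by -0.17 on the log2 scale, and the interval from -0.38 to 0.05 holds zero. Gm9747, an annotated gene on the opposite strand, shares 30.9% of the exonic bases of Irs1. Part of the Irs1 reads is therefore uncertain, as are the ratio and shares that use them. The class II and class III PI3K genes and their partner ranged from -0.23 for Pik3c2b to 0.17 for Pik3c2a, with Pik3r4 at -0.19 and Pik3c3 at 0.06. The antisense gene Gm44777 shares 12.3% of the exonic bases of Pik3c2a, so part of the Pik3c2a reads is uncertain too.

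**Figure D2:**
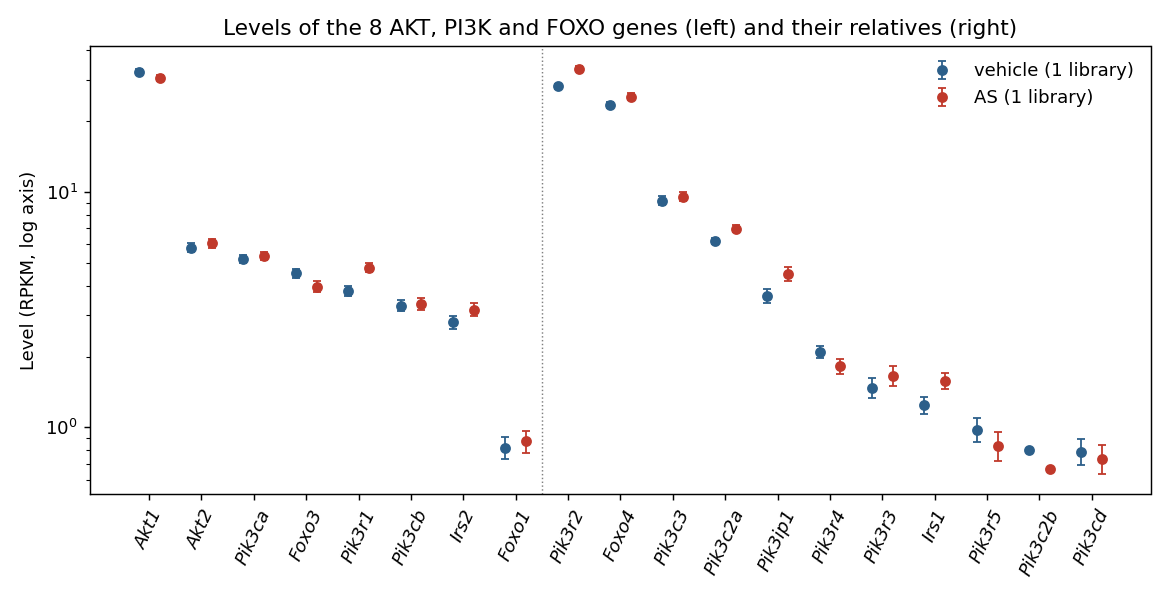
Levels in RPKM (vertical log axis) of the 8 members at the left of the dotted line and of 11 relatives at its right, with the vehicle library in blue and the AS library in red. Bars are 95% Poisson intervals of the reads (absent for Pik3c2b, whose reads were not recovered), and Akt1, Pik3r2 and Foxo4 stand highest in both libraries while Foxo1 is the lowest member.

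The other genes of the pathway were described by role from hand-written lists, chosen with earlier results of these data known. Together with the relatives they came to 128 genes in the table beside the members. Of these, 2 passed a log2 fold change of 1 upward, Trib3 and Klf4, and 0 passed it downward, which is 1.56% beside the 0.972% of all genes. At 0.58, 8 were higher and 1 was lower (7.03% beside 5.57%). Their median log2 fold change was 0.11.

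Of 13 ligand genes, 0 passed 1 in either direction, beside 0.972% of all genes. The median was 0.19, which was 0.08 with 1 RPKM added or over genes with a mean of at least 1 RPKM. Btc, the EGF receptor ligand betacellulin, was at 1.53 RPKM with AS and 0.810 RPKM with the vehicle, which gave a log2 fold change of 0.84. Vegfa, an angiogenic factor, was at 55.5 and 36.7 RPKM, a log2 fold change of 0.59. The lowest were Pdgfb (-0.34) and Tgfa (-0.29). Of 17 receptor and adaptor genes, 0 passed 1, beside the same 0.972%. The values ran from -0.21 to 0.36 with a median of 0.14. Igf1r, the IGF receptor upstream of Irs2, was at 3.94 and 3.04 RPKM, a log2 fold change of 0.36 with an interval from 0.30 to 0.45. The adaptor gene Gab1 followed with 0.27, while Erbb2 (-0.07) and Dok1 (-0.13) were lowest among genes with a mean of at least 1 RPKM.

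Of 10 genes for kinases that act on AKT and their partners, 0 passed 1, beside 0.972% of all genes, with a median of 0.11. Deptor, an mTOR inhibitor, was at 3.80 RPKM with AS and 2.53 RPKM with the vehicle, which gave a log2 fold change of 0.57. Mlst8, a subunit of both mTOR complexes, was at 1.80 and 1.19 RPKM (0.56). Rictor, the defining subunit of mTOR complex 2, which phosphorylates AKT, had a log2 fold change of -0.06, and Ilk one of -0.13.

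The phosphatase and inhibitor list held the largest difference of the pathway. Trib3, a pseudokinase that can bind AKT and is also a known target of the stress factors ATF4 and CHOP, was at 27.9 RPKM with AS (2665 reads) and 6.43 RPKM with the vehicle (694 reads). The log2 fold change was 2.10 with an interval from 2.00 to 2.24. It was 1 of 21 genes of the list past 1 upward, beside 0.662% of all genes, and 0 passed it downward. The list median was 0.17. Them4, named after its value was seen, was the other gene of the list past 0.58, at 1.02 and 0.538 RPKM from 185 and 110 reads (0.82). Among genes with a mean of at least 1 RPKM, the PP2A subunit gene Ppp2r5b (0.48) followed Trib3, and the PP2A subunit gene Ppp2r1a (-0.19) and the lipid phosphatase gene Inpp5e (-0.10) were lowest.

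Of 26 genes for AKT substrates and mTOR complex 1, 0 passed 1, beside 0.972% of all genes, and the median was 0.11. Eif4ebp1, which encodes a translation repressor acting below mTOR complex 1, was at 110.4 RPKM with AS and 68.3 RPKM with the vehicle, which gave a log2 fold change of 0.69. Gsk3b, a kinase gene whose product AKT inhibits, was at 6.70 and 4.77 RPKM (0.48). The lowest were Palld, an actin-associated gene (-0.37), and Ddit4, a stress-induced inhibitor of mTOR complex 1 (-0.32).

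**Figure D3:**
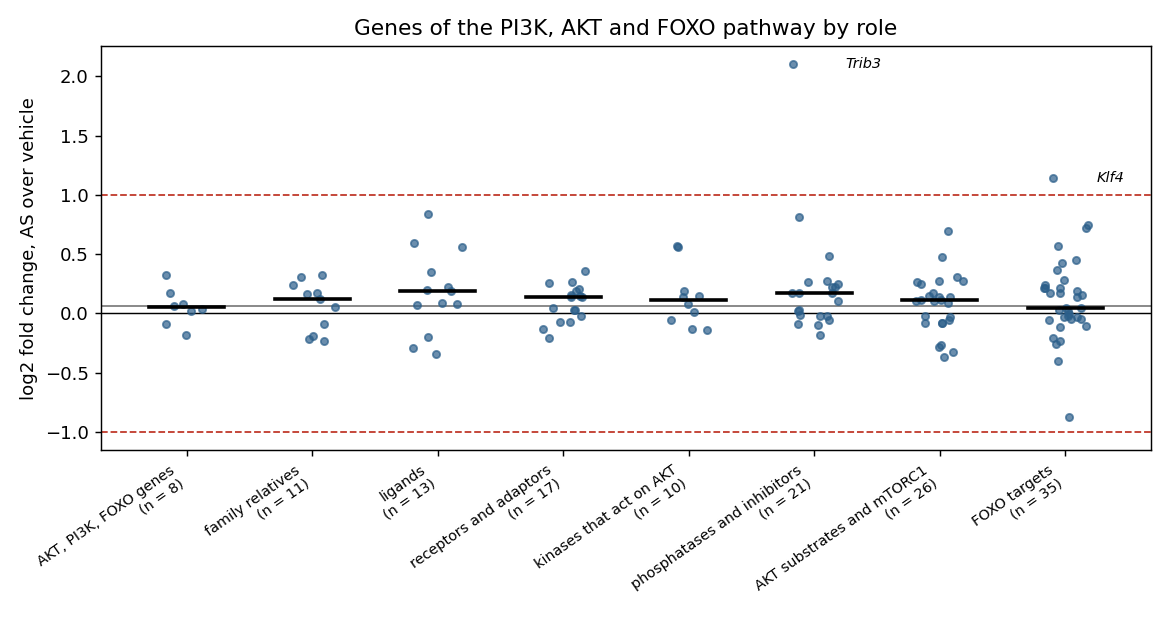
The log2 fold change of AS over vehicle (vertical axis) of each gene (dot) by role, 1 library per group, where black bars are list medians, the grey line is the median of all genes (0.07) and dashed lines are the threshold of 1 in either direction. List medians run from 0.05 to 0.19, and Trib3 (2.10) and Klf4 (1.14) alone lie past a dashed line.

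FOXO targets were set against the table because they are the transcriptional output next to Foxo1 and Foxo3. Of 51 symbols in the list, 35 had a row, and 21 of these had a positive log2 fold change (60.0%, beside 60.9% of all genes). The median was 0.05, beside 0.07 over all genes. The list also holds genes that FOXO factors are known to repress, Ccnd1 and Ccnd2 among them. Its share of positive values and its median thus have no single expected direction. Past 1, 1 gene was higher (1 of 35, beside 0.662% of all genes) and 0 were lower. This was Klf4, a zinc finger transcription factor gene, at 1.85 RPKM with AS (254 reads) and 0.787 RPKM with the vehicle (122 reads). Its log2 fold change of 1.14 had an interval from 0.92 to 1.56, so the threshold lies within counting error, and with 1 RPKM added it no longer passed.

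At 0.58, 3 of the 35 FOXO target genes were higher and 1 was lower, beside 3.56% and 2.01% of all genes. Beside Klf4 the higher ones were Sesn2, at 2.68 and 1.55 RPKM (0.75), and Gadd45a, at 73.2 and 44.3 RPKM (0.72), the latter named after its value was seen. Sesn2 encodes a stress-induced inhibitor of mTOR complex 1 and is also known as a target of ATF4, NRF2 and p53, and Gadd45a is also known as a p53 and stress response gene. The lower one was Bnip3, a mitophagy gene also known as a hypoxia target, at 32.5 RPKM with AS and 59.5 RPKM with the vehicle, which gave a log2 fold change of -0.87. Ccnd1, the gene of cyclin D1, which FOXO factors are known to repress, was next lowest at 53.1 and 70.2 RPKM (-0.40). Ccnd2, the gene of cyclin D2, also known as repressed by FOXO and named after its value was seen, was higher at 4.42 and 2.94 RPKM (0.57). Irs2, the member among these targets, lay with its 0.17 between the list median of 0.05 and the upper quartile of 0.23. The list median turned to -0.02 after centring or TMM scaling and was 0.09 over genes with a mean of at least 1 RPKM.

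**Figure D4:**
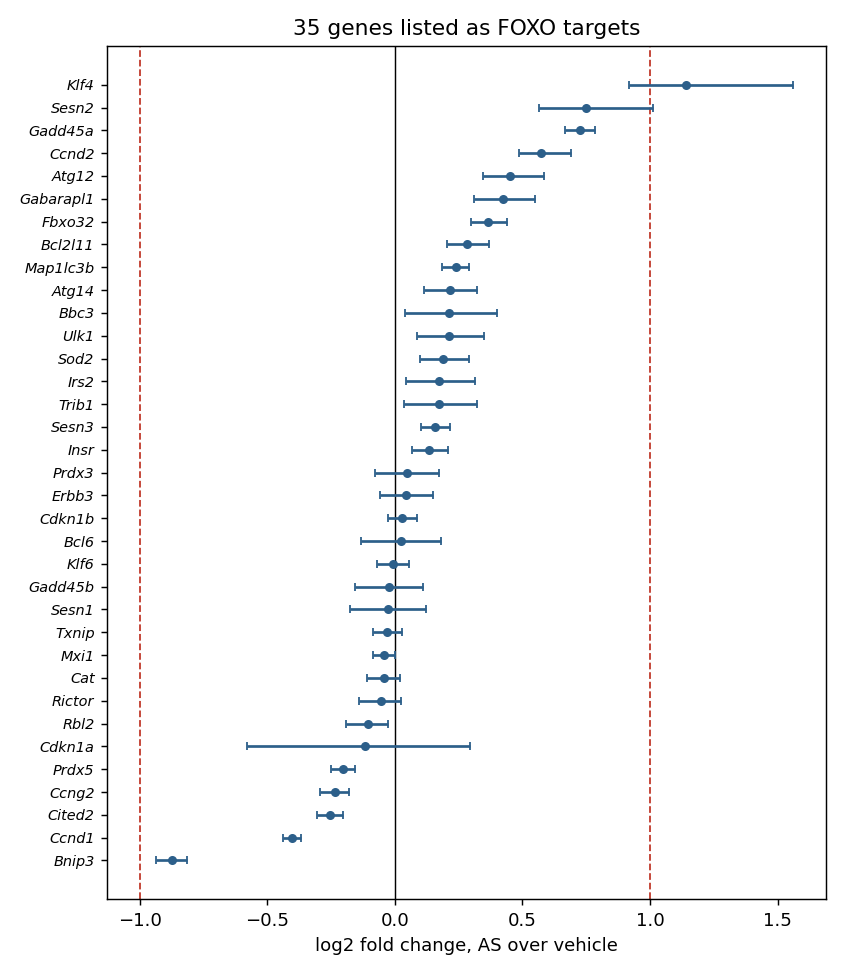
The log2 fold change of AS over vehicle (horizontal axis) of the 35 genes listed as FOXO targets, sorted, where dots are values with 0.1 RPKM added, bars are 95% Clopper-Pearson intervals of the reads and dashed lines mark 1 in either direction. Klf4 (1.14) lies past the upper line with a bar that crosses it, Bnip3 (-0.87) is lowest, and Irs2 (0.17) lies among the positive values.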

How the data were processed

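RNA was extracted with TRIzol and 1 stranded mRNA library was made per condition. The authors deposited 1 table with the RPKM of each library; the unit is not named there and was read from the values. The submitters' processing notes name fastp 0.23.4, STAR 2.5.3a and featureCounts, and they list the build GRCh38, which is a human build, while the gene symbols and implied exon lengths are those of mouse. The filter on low genes is not given in the sources used here. The table also holds the authors' fold changes, mean log2 CPM, p-values and FDR, which were not used.

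RPKM times the summed exon length of GENCODE M21 (GRCm38) is a whole multiple of 1 step per library. From this, whole reads (tolerance 0.05) were recovered for 12738 of 13502 genes with a single entry there (94.3%). Fold changes are log2 ratios with 0.1 RPKM added, which understates the change of low genes. They are compared at a log2 threshold of 1, with no p-value. Fold changes carry 95% Clopper-Pearson intervals, computed from a gene's recovered reads with nothing added, 95% Poisson intervals for levels, and exact conditional intervals for ratios between genes. The depth was 44909683 (AS) and 50820728 (vehicle) reads. The scripts were tested on simulated data. Alternatives were 0 or 1 RPKM added, centring on the median, a TMM factor from the recovered reads, a minimum mean of 1 RPKM and a threshold of 1.5-fold. The members and lists were chosen with earlier results of these data known. The result of 1 gene is not reported here. Named were all members and relatives and, per other list, each gene past the threshold and the 2 highest and 2 lowest with a mean of at least 1 RPKM; other genes are markers or are said to be chosen after their values were seen. Overlaps were read from GENCODE M21, and motifs were counted in the RefSeq promoter windows. Python 3.11.15 with scipy 1.17.1 was used.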

Additional observations from a re-analysis of the deposited data

How the results depend on the processing

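The count of members past a log2 fold change of 1 was 0 under each alternative run, and the member median ran from -0.01 (centring or TMM) to 0.05 (nothing added), beside the 0.05 reported. The ligand median of 0.19 was 0.08 with 1 RPKM added or with a minimum mean of 1 RPKM. Centring and TMM lowered the list medians by 0.07, which turned that of FOXO targets to -0.02, and the minimum mean moved it to 0.09. Centring and TMM moved Akt1 past its counting half-width, to -0.15 with either, and turned the signs of Akt2, Pik3ca and Pik3cb. With 1 RPKM added, 0 FOXO targets passed 1 in place of 1. At a threshold of 1.5-fold, the count was 2 of 13 for ligands (0 at 1) and 2 of 21 for phosphatases and inhibitors (1 at 1). It was 1 of 26 for AKT substrates and mTORC1 (0 at 1) and 4 of 35 for FOXO targets (1 at 1). Over all genes, 0.972% passed 1 and 5.57% passed 1.5-fold. A minimum mean of 1 RPKM removed Foxo1. No paired analysis was possible because each group has 1 library, and for the same reason no library could be left out. The depth limits Foxo1 most, and the spread between cultures is not known for any gene.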
